A study of Mus musculus with 22 samples.

Results

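The 8 genes *Sox7*, *Sox17*, *Sox18*, *Nr2f1*, *Nr2f2*, *Nr2f6*, *Foxc1* and *Foxc2* were followed through the mouse aorta-gonad-mesonephros (AGM), the embryonic region in which endothelial cells give rise to blood. They were taken by symbol from 24454 genes counted, and all 8 were found. RNA-seq had been performed on 22 libraries of 25 cells each from C57BL/6 embryos, sorted on VE-Cadherin (the endothelial adhesion molecule encoded by *Cdh5*), CD44 and Kit. The CD44Neg population (labelled endothelial) was sampled in 4 libraries of E9.5, 3 of E10 and 3 of E11. The CD44LowKitNeg population (labelled hemogenic endothelial, that is, endothelium able to form blood) had 1, 2 and 3 libraries at these stages. The CD44LowKitPos population (labelled Pre-HSPC, precursors of blood stem and progenitor cells) had 1 library at E9.5 and 2 at E10, and the CD44High population (labelled HSPC) had 3 libraries, all at E11. No transgene or treatment was involved. The labels do not say whether the libraries of a group came from separate embryos or litters, so p-values measure the spread between these libraries, which may be partly technical. Replicates are numbered 1 to 22 over the whole series.

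*Sox7*, *Sox17* and *Sox18* form the SOXF group, HMG-box transcription factors of endothelium. Sox17 is best known for arterial identity and for the hemogenic endothelium of the dorsal aorta, Sox18 for the onset of the lymphatic programme through Prox1, and Sox7 for vessel formation. *Nr2f2* encodes COUP-TFII, an orphan nuclear receptor that keeps venous identity by holding back Notch signalling, *Nr2f1* encodes COUP-TFI and *Nr2f6* the related receptor EAR2. Foxc1 and Foxc2 are forkhead factors that act with VEGF signalling on Notch ligand genes in arterial endothelium, and Foxc2 also acts in lymphatic valves.

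The libraries held 3912350 to 8657546 counts. *Cd44* was 29.9 ± 19.5 normalized CPM (read counts brought to a common library total, scaled by the trimmed mean of M values; SD, n = 10) in CD44Neg and between 254 and 268 on average in the other populations, and *Kit* was highest in CD44LowKitPos at 230 ± 50.1 (SD, n = 3). *Cd44* thus set CD44Neg apart, and its RNA was not called different between CD44High and either CD44Low population (edgeR adjusted p = 0.941 and 0.995). *Cdh5* was not level between the sorted populations, with 344 ± 143 in CD44Neg (n = 10), 956 ± 253 in CD44LowKitNeg (n = 6) and 168 ± 81.5 in CD44LowKitPos (n = 3). *Cdh5* had 0 counts in all 3 CD44High libraries, although their label gives a VE-Cadherin gate. That gate is on protein, which was not measured here. The summed level of 7 macrophage markers was 1370 to 3680 CPM in CD44High and at most 53.9 in any other library, while the summed level of 7 endothelial markers was 69.1 to 157 in CD44High and 945 or more elsewhere. In pools of cells, fewer cells of a type and less RNA per cell cannot be told apart.

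On GRCm38, with the GENCODE M21 annotation, *Sox17* lies on chromosome 1 (4490931 to 4497354, minus strand), *Sox18* on chromosome 2 (181669836 to 181671640, minus), *Nr2f2* on chromosome 7 (70351944 to 70366735, minus) and *Sox7* on chromosome 14 (63943673 to 63950732, plus). *Nr2f6* (71374123 to 71381960, minus) and *Foxc2* (121116171 to 121118895, plus) lie on chromosome 8, and *Foxc1* (31806633 to 31812476, plus) and *Nr2f1* (78188973 to 78199757, minus) on chromosome 13. Counts cover exons, and the merged exons ran from 1620 bases in *Sox18* to 8625 in *Nr2f2*. *Nr2f6* shares 54.4% of its exon bases with *Ocel1*, *Sox17* 16.8% with *Gm37587* (not analysed here), *Nr2f2* 7.46% with *B130024G19Rik* and *Nr2f1* 2.42% with *A830082K12Rik*. Reads of these pairs cannot be told apart in the counts, and the strand setting of the counting is not given in the sources used here. The *Nr2f6* values in particular are uncertain.

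Related members also share stretches of identical sequence in their DNA-binding domains, and a read lying wholly within such a stretch matches either gene. The longest identical run of each closest pair is given here from GENCODE M21 transcripts, 5′ to 3′, with the identical run in capitals and 15 bases on each side in lower case.
Nr2f1: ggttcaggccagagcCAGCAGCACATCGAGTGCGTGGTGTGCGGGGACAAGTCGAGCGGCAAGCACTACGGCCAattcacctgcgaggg
Nr2f2: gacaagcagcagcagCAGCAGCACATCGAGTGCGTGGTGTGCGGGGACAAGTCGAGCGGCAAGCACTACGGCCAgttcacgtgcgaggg
Foxc1: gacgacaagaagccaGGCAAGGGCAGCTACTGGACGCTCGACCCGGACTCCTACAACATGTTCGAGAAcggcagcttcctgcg
Foxc2: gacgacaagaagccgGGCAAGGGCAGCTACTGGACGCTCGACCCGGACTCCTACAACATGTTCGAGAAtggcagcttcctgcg
Sox17: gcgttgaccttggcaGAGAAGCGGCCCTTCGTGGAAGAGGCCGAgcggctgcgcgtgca
Sox18: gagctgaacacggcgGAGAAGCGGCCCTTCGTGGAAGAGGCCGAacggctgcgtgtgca

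The run of *Nr2f1* and *Nr2f2* is 59 bases long and starts at base 232 of the coding sequence of *Nr2f1* and at base 220 of *Nr2f2*, where the zinc fingers are encoded. The forkhead run of *Foxc1* and *Foxc2* is 53 bases long (from base 439 and base 418), and the HMG-box run of *Sox17* and *Sox18* 29 bases (from base 337 and base 370). The longest runs shared by *Sox7* with *Sox17* and with *Sox18* were 22 and 20 bases, and *Nr2f6* shared 23 bases with each of *Nr2f1* and *Nr2f2*. How reads that match both genes were counted is not given in the sources used here. In CD44LowKitNeg no library had a read of *Nr2f1* while one had 310 of *Nr2f2*, and *Sox17* was at 0 in a CD44LowKitPos library with 328 counts of *Sox18*. The reads themselves were not examined, and the part of shared reads in the counts was not tested.

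The first question was how the factors differ between the 2 endothelial populations. In CD44LowKitNeg, every library had more *Sox17* and more *Sox7* than any CD44Neg library of its stage, which held for 4.94% of the genes tested (544 of 11022), and this was not so for *Sox18*. For *Sox17*, the CD44Neg libraries had a lowest value of 43.2, a median of 95.0 and a highest of 194 CPM, and the CD44LowKitNeg libraries 158, 217 and 326. Pooled over stages the populations overlapped, but within each stage every CD44LowKitNeg library was above every CD44Neg library, with 263 to 326 against 138 to 194 at E11, 158 and 165 against 43.2 to 128 at E10, and 171 against 51.4 to 108 at E9.5. The log2 fold change was 1.14 (SE 0.30, edgeR adjusted p = 0.0109), just outside the adjusted p of 0.01 under which a gene is said here to be called. With stage as a covariate it was 0.96 (SE 0.21, edgeR adjusted p = 0.00269) and passed, as it did by DESeq2 (adjusted p = 0.00136). Of 25 alternatives 8 gained the call and 17 did not, with adjusted p up to 0.263 over the edgeR and DESeq2 fits.

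*Sox7* showed the same arrangement. It ran from 118 over a median of 198 to 350 CPM in CD44Neg, and from 229 over 364 to 644 in CD44LowKitNeg. Within stages the populations did not overlap, with 441 to 644 against 301 to 350 at E11, 229 and 288 against 139 to 206 at E10, and 277 against 118 to 228 at E9.5. Over all stages *Sox7* differed by 0.87 (log2 fold change, SE 0.25, edgeR adjusted p = 0.0193), not called. With stage as a covariate it differed by 0.68 (SE 0.15, edgeR adjusted p = 0.00329), called, as it was by DESeq2 (adjusted p = 0.00341). Of 25 alternatives only these 2 gained the call and 23 did not, with adjusted p up to 0.209 over the edgeR and DESeq2 fits.

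*Sox18* was not higher in CD44LowKitNeg. It ran from 136 over 281 to 714 CPM in CD44Neg and from 166 over 310 to 399 in CD44LowKitNeg. At E11 the 3 CD44LowKitNeg libraries (377 to 399) were below all 3 CD44Neg libraries (460 to 714), at E10 both (166 and 243) were below all 3 (266 to 313), and at E9.5 the single one (181) was within the CD44Neg range (136 to 274). Of all genes tested, 9.28% were below without overlap at both E10 and E11. Neither fit called the difference, with a log2 fold change of −0.20 (SE 0.31, edgeR adjusted p = 0.715), and of −0.44 (SE 0.15, edgeR adjusted p = 0.0486) with stage as a covariate.

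**Figure D1:**
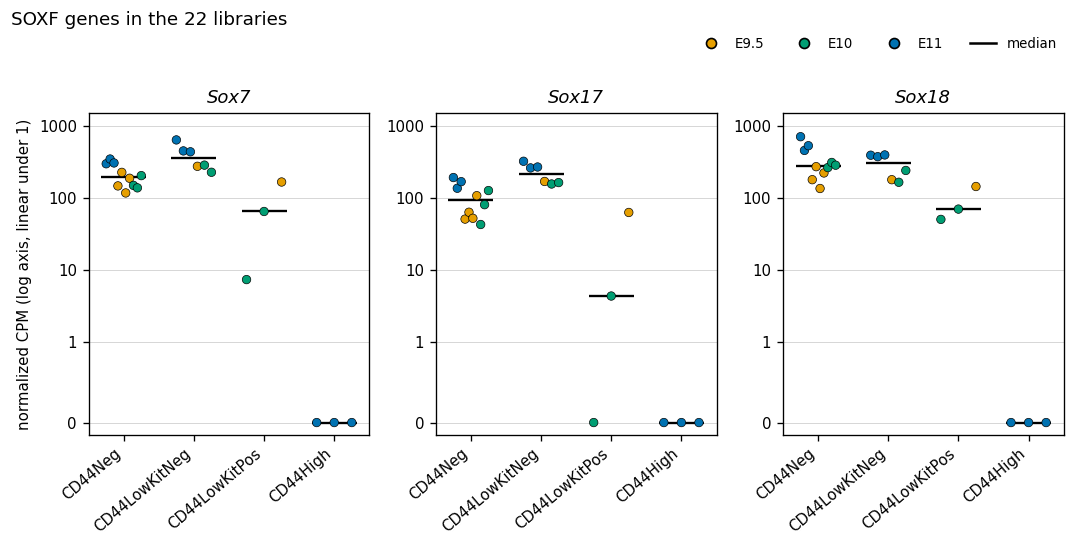
Normalized CPM of the 3 SOXF genes in each library (points, coloured by stage; log axis, linear under 1), with the median of each population as a line. *Sox7* and *Sox17* of CD44LowKitNeg sit above CD44Neg of the same colour, *Sox18* does not, and the 3 CD44High libraries are at 0 for each gene.

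The count of *Sox17* was divided by that of *Sox18* within each library, a measure that no scaling between libraries can change. The ratio was chosen after the values had been seen, so it is given as a description with no test. The ratio ran from 0.162 over a median of 0.291 to 0.484 in CD44Neg and from 0.679 over 0.761 to 0.947 in CD44LowKitNeg. The populations did not overlap at any stage. The mean difference was 1.39 on the log2 scale. The ratio of *Sox7* to *Sox18* ran from 0.421 over 0.739 to 0.868 in CD44Neg and from 0.944 over 1.37 to 1.73 in CD44LowKitNeg, again with no overlap, and differed by 0.997 on the log2 scale. At E11 alone (3 against 3 libraries) the differences were 1.31 and 1.18, and at E10 alone (2 against 3) 1.59 and 1.18. A ratio shows that the genes changed unequally and not which of them changed.

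**Figure D2:**
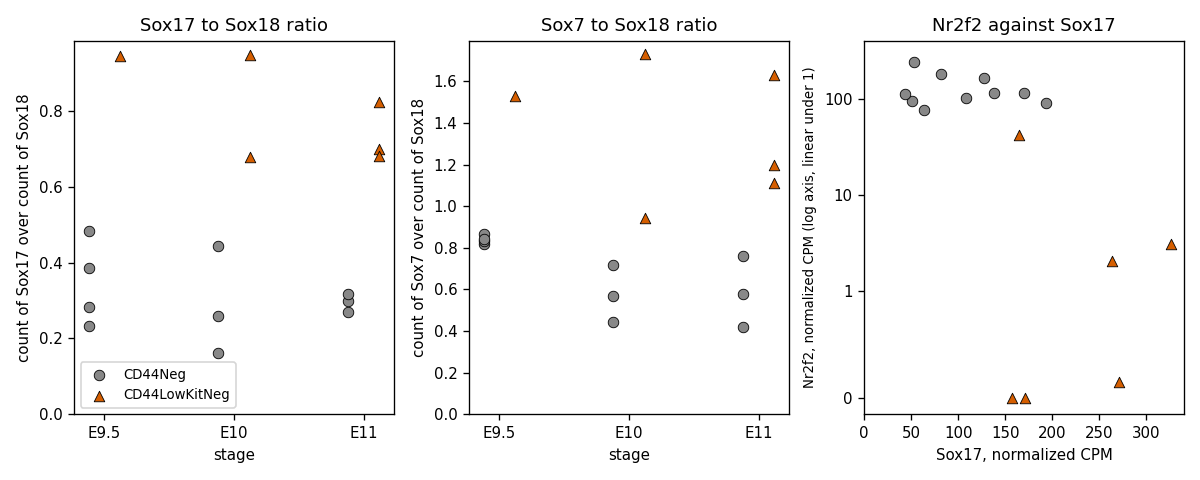
Left and middle, the count of *Sox17* and of *Sox7* divided by that of *Sox18* in each CD44Neg (grey circles) and CD44LowKitNeg (orange triangles) library by stage. Right, normalized CPM of *Nr2f2* (log axis, linear under 1) against *Sox17* in the same libraries. Every triangle is above every circle in the ratio plots, and 1 triangle (replicate 16, 41.9 CPM of *Nr2f2*) lies nearer to the circles than the other 5.

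Of the COUP-TF genes, *Nr2f2* and *Nr2f1* fell in CD44LowKitNeg and *Nr2f6* did not change call. *Nr2f2* was present in every CD44Neg library, from 76.1 over a median of 113 to 241 CPM. The 6 CD44LowKitNeg libraries gave 3.09, 2.07 and 0.155 CPM at E11 (replicates 11 to 13), 0 at E9.5 (replicate 14) and 0 and 41.9 at E10 (replicates 15 and 16). All 6 were below all 10 CD44Neg libraries, as was the case for 3.08% of all genes tested, but replicate 16 stood far above the other 5. The fitted log2 fold change was −4.01 (SE 0.93, edgeR adjusted p = 0.00441). Without replicate 16 it was −6.85, and without replicate 11 or 12 the call was lost (edgeR adjusted p = 0.0104 and 0.0114). At E10 alone it was −2.77 and not called (edgeR adjusted p = 0.318). Replicate 16 also held 800 counts of *Aplnr*, the apelin receptor of venous endothelium, against 0 to 147 in the other 5, but neither the most *Nrp2* (23 counts, with 56 in replicate 14) nor the most *Flt4* (468 counts, with 823 in replicate 14). The part of other cells in that library was not tested.

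*Nr2f1* was low throughout. CD44Neg had 0 to 10.3 CPM with a median of 3.17, that is, 0 to 46 counts, and 2 of the 10 libraries were at 0. All 6 CD44LowKitNeg libraries were at 0, where 3 counts, the limit that a count of 0 allows, correspond to 0.348 to 0.503 CPM. Over the group this makes *Nr2f1* at least 7.29-fold lower (edgeR adjusted p = 0.00398), a bound that covers counting error only and that drops to 5.83 when the highest CD44Neg library is left out. With E11 libraries alone *Nr2f1* was not called (edgeR adjusted p = 0.066), and at E10 alone it was not tested. *Nr2f6* ran from 11.4 over 18.6 to 25.5 CPM in CD44Neg and from 3.52 over 18.6 to 42.8 in CD44LowKitNeg. The wider CD44LowKitNeg range enclosed the CD44Neg one (log2 fold change −0.02, SE 0.39, edgeR adjusted p = 0.979), and the sign turned under other scalings.

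*Foxc2* rose in CD44LowKitNeg. It ran from 5.03 over a median of 15.1 to 23.4 CPM in CD44Neg and from 18.5 over 45.3 to 64.5 in CD44LowKitNeg, where the 3 E11 libraries (56.7 to 64.5) were above the 3 earlier ones (18.5 to 33.8). The overlap came from those earlier libraries. The summed level of 12 mesenchyme markers separated the same libraries (29.2 to 99.1 CPM at E11 and 4.19 to 20.3 earlier, with 0 to 36.7 in CD44Neg), and its part in the *Foxc2* values was not tested. The log2 fold change was 1.62 (SE 0.38, edgeR adjusted p = 0.0051). The call was lost with stage as a covariate (edgeR adjusted p = 0.0163) and without CD44Neg replicate 5 or any one of CD44LowKitNeg replicates 11, 12 and 13 (edgeR adjusted p from 0.0101 to 0.0168). It was also lost when all 22 libraries shared the fit (edgeR adjusted p = 0.0778). At E11 alone the log2 fold change was 2.22 and at E10 alone 0.50 (edgeR adjusted p = 0.0241 and 0.697). *Foxc1* ran from 2.79 over 9.96 to 22.8 CPM in CD44Neg and from 2.03 over 9.51 to 79.0 in CD44LowKitNeg, so 1 library, replicate 13, carried the higher mean. The log2 fold change was 0.87 (SE 0.60, edgeR adjusted p = 0.349) and turned to −0.15 without that library. Replicate 13 also had the highest mesenchyme marker sum of the population (99.1 CPM, with 4.19 to 72.5 in the other 5), and the part of such cells in the *Foxc1* value was not tested.

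Thus 3 of the 8 genes were called in CD44LowKitNeg against CD44Neg, *Foxc2* higher and *Nr2f1* and *Nr2f2* lower, where 10.2% of the 11022 genes tested were called (4.94% higher and 5.23% lower). The stages were unevenly spread over the populations, and with stage as a covariate *Sox7* and *Sox17* were called higher and *Foxc2* was not called, while *Nr2f1* and *Nr2f2* stayed called (edgeR adjusted p = 0.00787 and 0.00115). *Sox17* and *Nr2f2* had been shown by the study as arterial and venous genes on these same libraries, so their directions are not independent evidence. Of 19 arterial genes, 18 were tested, 10 were called higher and 0 lower, with a median log2 fold change of 1.73 beside 0.01 for all genes tested. *Hey2*, a Notch target, was higher by 4.10 on the log2 scale (SE 0.54, edgeR adjusted p = 3.57e-05), and the kinase gene *Bmx* by 3.77, the Notch ligand gene *Jag1* by 3.19, *Mecom* by 2.55 and the gap junction gene *Gja5* by 2.49. Of these, *Hey2*, *Bmx*, *Jag1* and *Gja5* had also been picked by the study from these libraries. The study had likewise named *Efnb2*, *Hey1*, *Dll4* and *Notch1* of the arterial list, so its count and median are not independent evidence. Of 6 venous genes, 3 were called lower and 0 higher, with a median of −1.25. They were *Nrp2* (−5.30), *Aplnr* (−4.48) and *Flt4* (−1.93), of which the study had picked *Nrp2* and *Aplnr*. Of 6 lymphatic genes 3 were tested, and *Mmrn1* was called lower (−2.63).

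Of the 16 other SOX genes 6 were tested, and *Sox13* was called higher (log2 fold change 1.57, SE 0.39, edgeR adjusted p = 0.0071), from 13.9 ± 6.20 CPM (SD, n = 10) to 40.9 ± 21.4 (SD, n = 6), with overlap between the populations and a call lost under 14 of 25 alternatives. *Sox6*, named here after its values were seen and also named by the study, was not called (2.86, SE 0.78, edgeR adjusted p = 0.0131), with 34.5 to 121 CPM in CD44LowKitNeg above the 0 to 31.0 of CD44Neg. No other NR2 gene (0 of 4 tested, of 9) and no other forkhead gene (0 of 12 tested, of 35) was called by edgeR. *Cdh5* itself was higher in CD44LowKitNeg by 1.48 (SE 0.24, edgeR adjusted p = 3e-04), as was *Tek* by 1.41, so that 2 of the 7 endothelial markers were called. The median of the 7 was 0.33, and *Kdr* (−0.20) and *Egfl7* (−0.41), not called and named after their values were seen, had negative fitted values. Of 7 blood markers 3 were tested and 2 were called higher (*Spi1* by 4.56 and *Laptm5* by 2.27), with marker sums of 43.2 to 209 CPM in CD44LowKitNeg and 13.3 to 44.2 in CD44Neg. The part of either list in the member values was not tested.

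**Figure D3:**
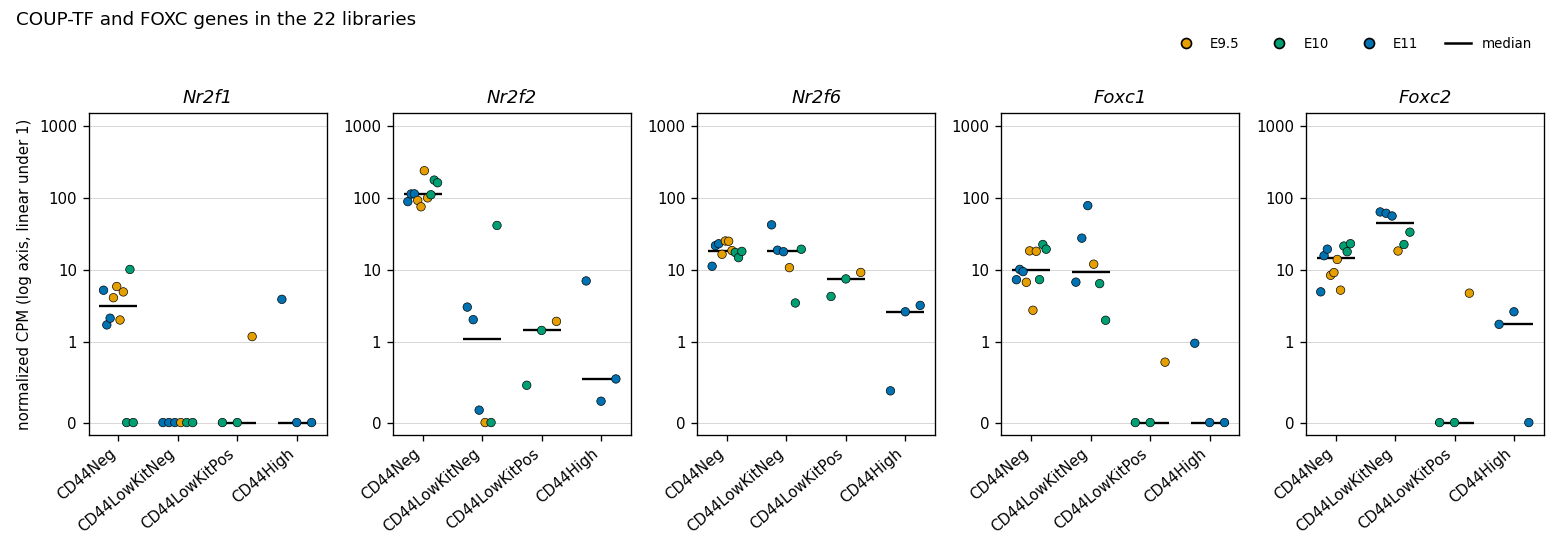
Normalized CPM of the COUP-TF and FOXC genes in each library (points, coloured by stage; log axis, linear under 1), with the median of each population as a line. Every CD44Neg library is above every other library for *Nr2f2*, with CD44LowKitNeg replicate 16 the nearest to them, and *Foxc1* and *Foxc2* are lower in every CD44LowKitPos and CD44High library than in any CD44LowKitNeg library.

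Per kilobase of merged exon, the only scale on which levels of different genes were compared, the order of the means over all stages in CD44Neg was *Sox18* (209 ± 110 CPM per kilobase), *Sox7* (64.8 ± 24.5), *Sox17* (21.6 ± 11.1), *Nr2f2* (14.9 ± 5.89), *Nr2f6* (6.51 ± 1.54), *Foxc2* (5.18 ± 2.47), *Foxc1* (2.12 ± 1.17) and *Nr2f1* (0.721 ± 0.619; all SD, n = 10). Each gene overlapped its neighbour in this order except *Nr2f2* and *Nr2f6*. The order was not the same at each stage. *Sox17* and *Nr2f2* were at 14.5 and 14.8 at E9.5 and at 17.6 each at E10, and *Sox17* was above *Nr2f2* without overlap at E11 (35.0 and 12.3). *Foxc2* was above *Nr2f6* at E10 (7.74 and 5.70). In CD44LowKitNeg the order began in the same way, with *Sox18* at 181 ± 67.5, *Sox7* at 118 ± 47.0 and *Sox17* at 47.3 ± 14.8 (SD, n = 6). There *Foxc2* (15.8 ± 7.51), *Nr2f6* (6.36 ± 4.42) and *Foxc1* (3.84 ± 4.99) had higher means than *Nr2f2* (0.913 ± 1.94). *Nr2f2* overlapped *Nr2f6* and *Foxc1*, and not *Foxc2*, and replicates 13 and 16 held the highest values of *Foxc1* and of *Nr2f2*. *Sox7* and *Sox17* did not overlap in CD44LowKitNeg, while *Sox18* and *Sox7* did.

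The next question was what happened to these genes as endothelial cells gained Kit and blood genes. All sample titles of CD44LowKitPos and CD44High carry the prefix KG, and those of CD44Neg and CD44LowKitNeg do not. In comparisons between these, population and whatever the prefix stands for cannot be told apart. All 3 SOXF genes were lower in CD44LowKitPos than in CD44LowKitNeg, with a wide spread. *Sox7* was 7.44, 65.5 and 168 CPM in replicates 17, 18 and 19, *Sox17* 0, 4.40 and 63.5, and *Sox18* 50.9, 70.7 and 145. In each case all 3 libraries were below all 6 CD44LowKitNeg libraries (7.35% of all genes tested were separated in this direction), and replicate 19, the only one at E9.5, was the highest. Replicate 19 also had the lowest summed level of 7 blood markers (411 CPM, with 1250 and 1100 in replicates 17 and 18) and the highest summed level of the arterial genes (1620, with 123 and 321). The log2 fold changes were −2.28 (SE 0.60, edgeR adjusted p = 0.0163) for *Sox7*, −3.32 (SE 0.94, edgeR adjusted p = 0.023) for *Sox17* and −1.72 (SE 0.48, edgeR adjusted p = 0.0217) for *Sox18*, none of them called by edgeR. DESeq2 called all 3 (adjusted p = 0.000203, 0.00291 and 0.000816). Without replicate 19 the edgeR log2 fold changes were −3.43 (edgeR adjusted p = 0.00222), −6.66 (edgeR adjusted p = 0.000169) and −2.30 (edgeR adjusted p = 0.0107), so the first 2 were then called, while the remaining CD44LowKitPos libraries are all E10.

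*Foxc1* was the only member called by edgeR in CD44LowKitPos against CD44LowKitNeg, where 4.26% of 12949 genes were called (1.71% lower). It had 0, 0 and 0.754 CPM in replicates 17 to 19 (log2 fold change −6.38, SE 1.46, edgeR adjusted p = 0.00681), below all CD44LowKitNeg libraries. The call was lost with stage as a covariate (edgeR adjusted p = 0.0189) and without CD44LowKitNeg replicate 12 or 13 or CD44LowKitPos replicate 17 or 18 (edgeR adjusted p from 0.0119 to 0.0557). It was also lost with these populations fitted alone (edgeR adjusted p = 0.0441) and with E9.5 and E10 libraries alone (edgeR adjusted p = 0.0591). Of the 6 CD44LowKitNeg libraries 3 were E11, a stage with no CD44LowKitPos library, and *Foxc1* averaged 37.9 CPM there and 6.92 earlier. *Foxc2* had 0, 0 and 4.82 CPM, likewise below all of CD44LowKitNeg, and narrowly missed the threshold (−4.73, SE 1.16, edgeR adjusted p = 0.0101). Without replicate 19 *Foxc2* was called (edgeR adjusted p = 0.000104), and DESeq2 called it with all libraries (adjusted p = 3.35e-06). *Nr2f2* remained low at 0.465, 1.47 and 1.96 CPM and *Nr2f6* was 4.34, 7.60 and 9.35, and both overlapped CD44LowKitNeg. *Nr2f1* was at 0 in both E10 libraries and at 8 counts in replicate 19. The *Cdh5* level fell by 2.51 on the log2 scale in the same comparison (SE 0.43, edgeR adjusted p = 0.00109), and the part of endothelial cells in the SOXF and FOXC values was not tested.

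Against CD44Neg, only *Nr2f2* was called by edgeR in CD44LowKitPos (log2 fold change −6.60, SE 1.55, edgeR adjusted p = 0.00871), where 3.48% of genes were called (1.41% lower). The call was lost without any one of the 10 CD44Neg or 3 CD44LowKitPos libraries (edgeR adjusted p from 0.0119 to 0.0686) and with E9.5 and E10 libraries alone (edgeR adjusted p = 0.0117), although the lowest CD44Neg library (76.1 CPM) was far above the highest CD44LowKitPos library (1.96). In the same comparison 5 of 6 venous and 2 of 7 endothelial genes were called lower and 6 of 7 blood genes higher, and their part in the *Nr2f2* value was not tested. *Sox18* overlapped the CD44Neg range (−1.93, SE 0.47, edgeR adjusted p = 0.0118). It passed once stage entered as a covariate (edgeR adjusted p = 0.00506) and by DESeq2 (adjusted p = 0.000123). *Foxc1* (−5.53, edgeR adjusted p = 0.0135), *Foxc2* (−3.13, edgeR adjusted p = 0.0681) and *Nr2f6* (−1.45, edgeR adjusted p = 0.161) were below all CD44Neg libraries, as were 4.37% of genes. None of them was called by edgeR, while DESeq2 called *Foxc1* (adjusted p = 1.39e-05) and *Foxc2* (adjusted p = 0.00293). Without replicate 19 edgeR called both (adjusted p = 0.00551 and 0.00032), and *Foxc1* was called with these populations fitted alone (edgeR adjusted p = 0.00438). *Sox7* (−1.41) and *Sox17* (−2.19) overlapped the CD44Neg range and were not called, and *Sox17* was called without replicate 19 (−5.50, edgeR adjusted p = 0.000507).

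In CD44High no read of *Sox7*, *Sox17* or *Sox18* was counted in any of the 3 libraries. With a limit of 3 counts in the shallowest library (0.816 CPM), this placed *Sox7* at least 98.4-fold, *Sox17* at least 27.7-fold and *Sox18* at least 109-fold below CD44LowKitPos. These 3 members were called (edgeR adjusted p = 5.15e-06, 0.00315 and 3.3e-07), where 3.01% of genes were called (2.23% lower). *Sox17* was also at 0 in CD44LowKitPos replicate 17, so the populations overlapped for that gene. For *Sox17* the bound rested on replicate 19 of CD44LowKitPos and was 2.70 without it, and the call was lost without it (edgeR adjusted p = 0.0451) or without any one CD44High library (edgeR adjusted p from 0.015 to 0.0179). The *Sox7* bound was 44.7 without replicate 19, and the *Sox7* call was lost when the 6 libraries were fitted alone (edgeR adjusted p = 0.0164). CD44High was sorted at E11 alone and CD44LowKitPos at E9.5 and E10, so population and stage cannot be told apart in this comparison. At 0 counts of *Cdh5* and with 7 of 7 macrophage markers called higher against CD44LowKitNeg, the CD44High libraries differed from their gate, and the part of this in the absence of SOXF reads was not tested.

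Against the endothelial populations, 6 of 8 members were called lower by edgeR in CD44High in each comparison, where 16% of genes were called against CD44LowKitNeg (8.17% lower) and 14.4% against CD44Neg (7.25% lower). In each, 7 of 7 endothelial markers were called lower and 7 of 7 macrophage markers higher. Of 19 arterial genes, 17 were called lower against CD44LowKitNeg and 11 against CD44Neg. The part of these lists in the member values was not tested. *Sox7* was at least 476-fold, *Sox17* at least 276-fold and *Sox18* at least 360-fold below CD44LowKitNeg, and at least 262-, 126- and 416-fold below CD44Neg. The first 2 bounds were higher against CD44LowKitNeg and that of *Sox18* against CD44Neg. *Nr2f6* was 0.396, 2.66 and 3.26 CPM in replicates 20 to 22 and was called in both (−3.18, SE 0.71, edgeR adjusted p = 0.00172, and −3.21, SE 0.70, edgeR adjusted p = 0.00131), though not without replicate 20 (edgeR adjusted p = 0.0106 and 0.0101). The *Nr2f6* call was also lost against CD44LowKitNeg with these populations fitted alone (edgeR adjusted p = 0.0312) and against CD44Neg with E11 libraries alone (edgeR adjusted p = 0.0199). *Foxc1*, with 0.990, 0 and 0 CPM, was also called in both (−5.87, edgeR adjusted p = 0.00361, and −5.02, edgeR adjusted p = 0.00851). The *Foxc1* calls were lost without replicate 21 or 22, and the one against CD44Neg also without any one of CD44Neg replicates 1, 2, 3, 5, 7, 9 and 10 or of CD44LowKitNeg replicate 12 (edgeR adjusted p from 0.0103 to 0.0469 over both comparisons). They were lost in the same alternative fits as *Nr2f6* (edgeR adjusted p = 0.0229 and 0.0278).

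*Foxc2*, with 1.78, 2.66 and 0 CPM, was called by edgeR only against CD44LowKitNeg (−4.83, SE 1.18, edgeR adjusted p = 0.00358), and not without any one CD44High library (edgeR adjusted p from 0.0101 to 0.0191). Against CD44Neg, edgeR did not call *Foxc2* (−3.22, adjusted p = 0.0299) and DESeq2 did (−3.23, adjusted p = 0.00147). *Nr2f2*, with 7.13, 0.266 and 0.544 CPM, was called only against CD44Neg (−5.51, SE 1.46, edgeR adjusted p = 0.007), and not without CD44High replicate 21 or 22 or CD44Neg replicate 6, 9 or 10 (edgeR adjusted p from 0.01 to 0.0414), nor with stage as a covariate (edgeR adjusted p = 0.0129). CD44High replicate 20 held most *Nr2f2* reads and all *Nr2f1* reads of the population, with 36 reads of *Nr2f2* and 20 of *Nr2f1*. The other 2 libraries had 1 and 2 reads of *Nr2f2* and 0 of *Nr2f1*. It also had the highest mesenchyme marker sum of all libraries (238 CPM, with 142 and 0.272 in the other 2 CD44High libraries) and of 5 neural markers (10.5 CPM, with 0 in the other 2 and at most 0.53 elsewhere), and the part of such cells in these reads was not tested.

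Stage was the remaining axis. Within CD44Neg, *Sox18* rose between E9.5 and E11. It was 181, 274, 136 and 224 CPM in the 4 E9.5 libraries, 266, 313 and 287 at E10 and 714, 460 and 535 at E11. All E11 libraries were above all earlier ones. The log2 fold change from E9.5 to E11 was 1.501 (SE 0.22, edgeR adjusted p = 0.00325), and *Sox18* was the only member called, where 0.684% of 11250 genes were called. Of 7 endothelial markers, 3 were also called higher (*Pecam1* by 1.52, *Tie1* by 1.10 and *Esam* by 0.99) and all 7 fitted values were positive. The 4 lymphatic genes tested also had positive values (median 2.13) and were not called by edgeR, with *Prox1* at 3.07 (SE 1.49, edgeR adjusted p = 0.313) and *Reln* at 6.99 (SE 1.84, edgeR adjusted p = 0.0629), both named after their values were seen. The part of either list in the *Sox18* value was not tested. The *Sox18* call was lost without replicate 1, 3, 4 or 7 (edgeR adjusted p from 0.0112 to 0.0216). *Sox7* (171 ± 48.0 CPM at E9.5, n = 4, and 320 ± 26.4 at E11, n = 3; log2 fold change 0.92, SE 0.22, edgeR adjusted p = 0.036) and *Sox17* (69.1 ± 26.8 and 167 ± 28.2; log2 fold change 1.29, SE 0.34, edgeR adjusted p = 0.0536) also separated the stages with no overlap and were not called, although both were called without the filter on low counts and by DESeq2. Genes higher at E11 with no overlap made up 9.86% of all genes tested, so the separation alone is a common one. *Nr2f2*, with 128 ± 76.0 at E9.5 and 106 ± 14.4 at E11, and the other 4 members overlapped between the stages.

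Within CD44LowKitNeg, the E11 libraries were above the 3 earlier ones for *Sox7* (513 ± 114 against 265 ± 31.3 CPM), *Sox17* (287 ± 33.9 against 164 ± 6.65), *Sox18* (390 ± 11.6 against 197 ± 40.6) and *Foxc2* (61.0 ± 3.98 against 25.1 ± 7.88; all SD, n = 3 and 3). The log2 fold changes were 0.99, 0.84, 1.03 and 1.32 (edgeR adjusted p = 0.0537, 0.0702, 0.0469 and 0.115). By edgeR 0 of the 7 members tested were called, where 0.173% of genes were called. At an unadjusted p under 0.05 there were 5 (16.8% of genes), and DESeq2 called 3 (5.07% of genes). In the same comparison all 7 endothelial markers (median log2 fold change 1.13) and all 5 mesenchyme markers tested (median 2.94) had positive fitted values, none of them called by edgeR, and their part in the member values was not tested. Separation in this direction was seen for 11.9% of genes. *Nr2f1*, at 0 in all these libraries, was not tested. The labels' dates go with the stages, so stage and the day of collection or processing that they may stand for cannot be told apart.

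Whether the difference between the 2 endothelial populations depended on stage was tested next. In a fit of the 11 E10 and E11 libraries with an interaction term, edgeR called 0 members, where 0.00806% of genes were called. At an unadjusted p under 0.05 there were 2 members (*Foxc1* and *Foxc2*; 10.7% of genes), and DESeq2 called 0 (0.976% of genes). The interaction was 0.02 (SE 0.32) for *Sox7*, −0.17 (SE 0.47) for *Sox17* and −0.06 (SE 0.29) for *Sox18* on the log2 scale. It was 3.99 (SE 1.30, edgeR adjusted p = 0.278) for *Foxc1* and 1.72 (SE 0.73, edgeR adjusted p = 0.433) for *Foxc2*. For *Nr2f2* it was −3.04 (SE 1.47, edgeR adjusted p = 0.491), and without the raised E10 replicate 16 the sign turned, on a single remaining E10 library of CD44LowKitNeg with 0 counts, so that its size is set by the prior count. Without the filter on low counts *Nr2f2* was called (−3.04, edgeR adjusted p = 2.65e-05).

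**Figure D4:**
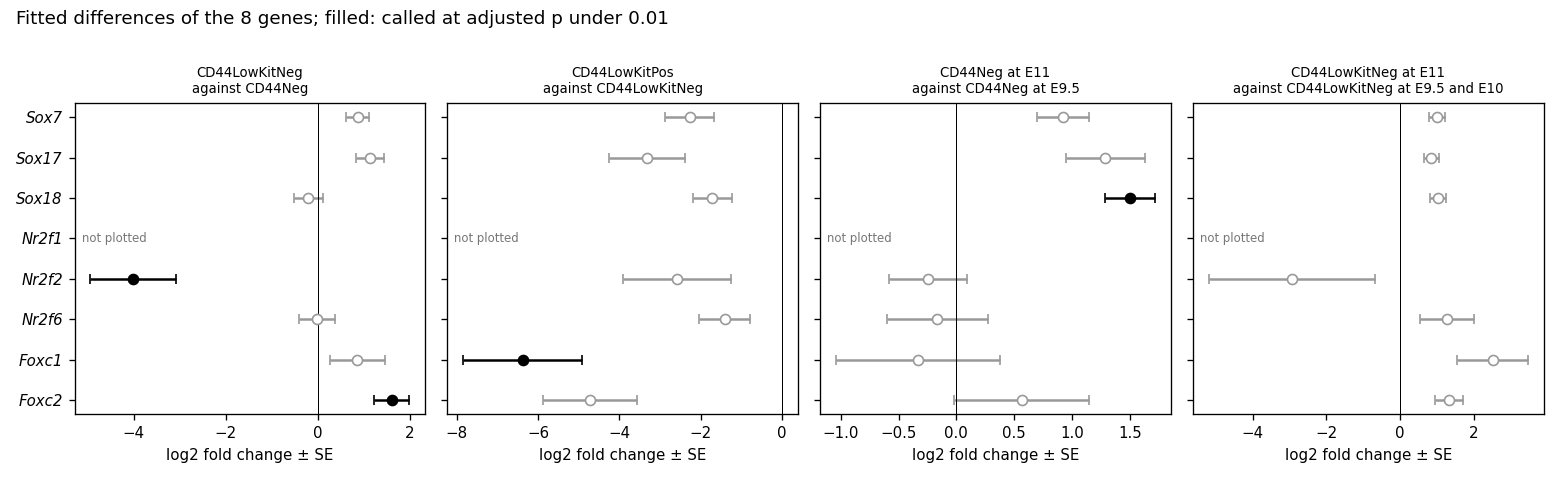
Fitted log2 fold changes (points) with their standard errors (bars) of the members, from left to right for CD44LowKitNeg against CD44Neg, CD44LowKitPos against CD44LowKitNeg, E11 against E9.5 in CD44Neg and E11 against the earlier stages in CD44LowKitNeg, filled where called by edgeR at an adjusted p under 0.01. The horizontal scales differ between panels, and *Nr2f1*, with libraries at 0, is not plotted. *Nr2f2* and *Foxc2* are called in the first panel, *Foxc1* in the second, *Sox18* in the third and none in the last.

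Whether arterial and venous factors traded places between pools of one population was examined over the 10 CD44Neg libraries, in 3 relations. The relation of *Sox17* with *Nr2f2* did not pass at 0.05 (Pearson r = −0.15, permutation p = 0.68, adjusted 0.68; Spearman rho = −0.0182, permutation p = 0.972, adjusted 0.972), nor did that of *Sox18* with *Nr2f2* (r = −0.385, permutation p = 0.275, adjusted 0.412; rho = −0.0909, permutation p = 0.81, adjusted 0.972). At an adjusted p under 0.05, the relation of *Sox17* with *Sox18* passed (r = 0.811, permutation p = 0.00414, adjusted 0.0124; rho = 0.83, permutation p = 0.00476, adjusted 0.0143). Without the 2 libraries farthest from the median of the first gene, r was −0.0728, 0.265 and 0.837 for these 3 relations in the order given. With stage means removed r was 0.0223, −0.714 and 0.45 (permutation p adjusted 0.951, 0.0616 and 0.285), so the relation of *Sox17* with *Sox18* stayed positive and did not pass the test.

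Over all 22 libraries, which differ in population, the genes whose log2 CPM was most like that of each member were described by Pearson r, with no test. For *Sox7* they were *Gja4* (0.989) and *Clec14a* (0.987), for *Sox17* *Arhgef15* (0.968) and *Epas1* (0.967), and for *Sox18* *S100a16* (0.991) and *Adgrf5* (0.991). For *Nr2f2* they were *Prl3b1* (0.927) and *Ramp3* (0.903), for *Nr2f6* *Prkch* (0.923) and *Tcaf1* (0.904), for *Foxc1* *Il17rd* (0.90) and *Cttn* (0.897), and for *Foxc2* *Kank1* (0.939) and *Cald1* (0.924). The likeness was lowest for *Nr2f1*, with *Tiam1* (0.765) and *Mzb1* (0.745), at few counts. Among the members, r was 0.95 for *Sox7* with *Sox17*, 0.975 for *Sox7* with *Sox18* and 0.353 for *Sox17* with *Nr2f2*. The 3 CD44High libraries, at 0 for the SOXF genes, and the shared depth of each library enter these values.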

How the data were processed

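Pools of 25 sorted cells were processed by the authors with SMART-Seq2 (oligo-dT priming, 14 cycles of pre-amplification), Nextera libraries and NextSeq 500 sequencing. Per the paper and the labels, adaptors were clipped with FASTX, reads mapped with RNA STAR to mm10 and counted per gene with htseq-count (HTSeq), and raw counts of 22 libraries were deposited. The annotation, versions and strand setting are not given in the sources used here. No molecular identifiers were used, and the limits of 3 counts cover counting error only, while standard errors include the spread between libraries. Counts were tested in R 4.3.3 with edgeR 4.0.16 (trimmed mean of M values, genes kept by a minimum count of 10 and a total of 15, quasi-likelihood test, Benjamini-Hochberg adjustment over all genes tested, called under 0.01). CD44LowKitNeg and CD44Neg were fitted alone without a covariate, other population pairs in 1 fit of all 22 libraries, and stages within populations. Fits were tested on simulated data. Relations used 100000 permutations. DESeq2 1.42.0, other scalings, no filter, stage as a covariate and leaving out each library were alternatives. Replicates differed by more than sampling noise, with a chi-square per degree of freedom from 17.6 to 90.2 over 20 pairs. Named genes were the 8 members, sorting markers, called genes of the lists (up to 5 per direction; 3 for the gene families) and the 2 genes most like each member, beside a few marked in the text as named after their values were seen. Members and lists were chosen with earlier results of these data known.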

Additional observations from a re-analysis of the deposited data

Results flagged for a closer look

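In 19 sets of values (the members and the ratios of *Sox17* and *Sox7* to *Sox18* in CD44Neg and CD44LowKitNeg, leaving out *Nr2f1* in CD44LowKitNeg, at 0 throughout), a test for 1 sample far from the others marked 2, and chance marks about 1 in 20 groups. *Nr2f2* in CD44LowKitNeg replicate 16 (E10) was 41.9 CPM, with the next library at 3.09, a gap of 0.926 of the whole range. *Foxc1* in CD44LowKitNeg replicate 13 (E11) was 79.0 CPM, with the next library at 27.9, a gap of 0.663 of the range. *Nr2f2* stayed called without replicate 16, and *Foxc1* was not called with or without replicate 13.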

How the results depend on the processing

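No paired analysis was possible because every library carries its own number, so no number is shared between populations. In CD44LowKitNeg against CD44Neg, 1121 genes and 3 members were called. At a threshold of 0.05 there were 2217 and 5, with DESeq2 1746 genes (*Nr2f2* had no adjusted p there), with E11 libraries alone 376 and 1 and with E10 alone 1 and 0, on fewer samples. The log2 fold change of *Nr2f6* (−0.02) was 0.046 with DESeq2 size factors or its Wald test, 0.0065 with upper-quartile scaling, 0.010 without the filter on low counts, 0.028 with *Rn45s* left out and 0.55 at E11 alone, and that of *Foxc1* was −1.88 at E10 alone. In CD44LowKitPos against CD44LowKitNeg, 552 genes and 1 member were called. A threshold of 0.05 gave 1619 and 5, DESeq2 1265 and 5, stage as a covariate 366 and 0, only the 2 populations 15 and 0, and E9.5 and E10 alone 9 and 0, while DESeq2 size factors, upper-quartile scaling, no filter and leaving out *Rn45s* gave 2 members each. Of the scalings, only DESeq2 size factors shifted the median of all genes by more than 0.1 on the log2 scale, in this comparison (by −0.133). In CD44LowKitPos against CD44Neg (451 and 1), a threshold of 0.05 gave 941 and 3, DESeq2 829 and 4, E9.5 and E10 alone 288 and 0, and no filter, stage as a covariate and only the 2 populations 2 members each. For CD44High, the counts of 390 (against CD44LowKitPos), 2067 (CD44LowKitNeg) and 1864 (CD44Neg) were 784, 3471 and 2917 at 0.05. The first was 716 with DESeq2 and 204 with 1 member for only the 2 populations, the second 1265 for only the 2 populations and the third 1011 at E11 alone. *Foxc1* against CD44LowKitPos was −0.17 with stage as a covariate, and *Nr2f2* against CD44LowKitNeg 0.53 at E11 alone. Between stages of CD44Neg (77 and 1), a threshold of 0.05 gave 352 and 2, no filter 279 and 3 and DESeq2 429 and 3. Between stages of CD44LowKitNeg (19 and 0) these gave 235 and 1, 163 genes, and 558 and 3. For the dependence on stage (1 gene) there were 23 genes at 0.05, 190 and 1 member without the filter, 121 with DESeq2 and 17 with all 16 libraries. For the relations within CD44Neg, removing stage means gave 0.0223 for *Sox17* with *Nr2f2* and 0.45 for *Sox17* with *Sox18*, and leaving out 2 libraries 0.265 for *Sox18* with *Nr2f2*. The count ratios at E11 alone differed by 1.31 and 1.18.

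Leaving out 1 library in turn gave 1334 to 2176 genes in CD44High against CD44LowKitNeg, 251 to 408 against CD44LowKitPos, 65 to 687 in CD44LowKitPos against CD44LowKitNeg (65 without replicate 17), 159 to 630 against CD44Neg (159 without replicate 18), 8 to 98 between stages of CD44Neg (8 without replicate 1), 0 to 2 between stages of CD44LowKitNeg and 0 to 3 for the dependence on stage. Members called ranged from 1 to 4 in CD44LowKitNeg against CD44Neg (1 without replicate 11), 0 to 4 in CD44LowKitPos against CD44LowKitNeg and against CD44Neg (4 without replicate 19 in both), and 0 to 1 between stages of CD44Neg. Log2 fold changes that turned direction ranged from −0.15 to 1.11 (*Foxc1*) and −0.44 to 0.22 (*Nr2f6*) in CD44LowKitNeg against CD44Neg, from −3.01 to 0.23 for *Nr2f2* in CD44LowKitPos against CD44LowKitNeg, and from −4.33 to 1.32 for *Nr2f2* in CD44High against CD44LowKitNeg. In CD44High against CD44LowKitPos they ranged from −3.68 to 4.14 (*Foxc1*), −0.83 to 6.12 (*Foxc2*), −4.34 to 5.97 (*Nr2f1*) and −1.73 to 1.56 (*Nr2f2*). Between stages they ranged from −3.57 to 6.70 for *Nr2f2* in CD44LowKitNeg, and from −0.44 to 0.26 (*Nr2f2*) and −0.37 to 0.073 (*Nr2f6*) in CD44Neg. For the dependence on stage they ranged from −4.03 to 6.89 (*Nr2f2*), −0.62 to 0.15 (*Sox17*), −0.30 to 0.23 (*Sox18*) and −0.18 to 0.20 (*Sox7*). The values of 6.70 and 6.89 for *Nr2f2* are without replicate 16, where the earlier CD44LowKitNeg libraries left are all at 0, so their size is set by the prior count. Except where fewer samples were used, the cause was not tested. *Nr2f1* rested on at most 46 counts in any library.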
